A study of Xenopus laevis with 7 samples.

Results

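Xenopus laevis carries many of its genes as a pair of homeologs, the L copy and the S copy, which descend from the 2 ancestral species whose genomes were joined in this frog. Of 7746 pairs with both copies listed, 3301 had a mean of at least 1 RPKM in each copy over 6 blastopore lip libraries, and 64 of these (1.94%) met a rule of divergent dorsoventral placement. RPKM are reads scaled to transcript length and to the mapped reads of the library. In each of 3 experiments, the log2 ratio of dorsal to ventral lip, with 0.5 RPKM added to both, was taken for the L copy and for the S copy. A pair was kept where L minus S had the same sign in all 3 experiments and an absolute value of at least 0.5 in each. The L copy was the more dorsal in 28 pairs (0.848% of the 3301) and the S copy in 36 (1.09%). Since these values chose the pairs, every dorsal against ventral value of a member is a description and carries no test.

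The embryos were wild type, from frogs of a commercial supplier, at stage 10.5, the early gastrula. They were sampled as 1 library of whole embryos, 3 libraries of dorsal lips and 3 of ventral lips, the lips cut out in Barth's saline, and no group was treated. The replicate number marks the experiment: the whole embryo library was made in experiment 1, and per the file headers a single sequencing lane held all 4 lip libraries from experiments 2 and 3. The labels do not say that the experiments used separate clutches, so the spread over experiments may be technical. Recovered reads ranged from 26438016 to 37998992 per library, so that 1 read over 1 kb was worth 0.0257 to 0.0369 RPKM. Marker transcripts set the lips apart as labelled: summed organizer markers ranged from 1346 to 1673 RPKM in the dorsal and from 7.21 to 24.1 in the ventral lips, and summed ventral center markers from 31.7 to 44.5 in the dorsal and from 256 to 457 in the ventral lips. Endoderm markers ranged from 312 to 403 in the dorsal and from 235 to 400 in the ventral lips, epidermis markers from 397 to 437 and from 526 to 613, and neural markers from 1472 to 1798 and from 958 to 1704. The germ plasm markers were low, at 14.3 to 41.1 and 17.1 to 66.4, and 1 transcript each of the epidermis and germ plasm lists was at 0 in all lips. Of the symbols written, 4 of 9 ventral center, 5 of 7 endoderm, 9 of 11 epidermis and 6 of 7 neural ones were found. The organizer markers include the members dkk1, gsc and admp, and the ventral center markers include the member bambi. Most of the endoderm sum came from the member mixer. In such bulk libraries, fewer cells of a type and less RNA per cell cannot be told apart.

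As background, the dorsal lip holds the Spemann organizer, which secretes inhibitors of BMP and Wnt signalling and gives rise to head and axial mesoderm. The ventral lip holds the opposing center, where BMP signalling is high and feedback inhibitors such as Bambi are made. After a genome is doubled, both copies of a gene can stay alike, or the copies can come to differ in level or in where they are transcribed. Which copy retained an older pattern and which acquired a new one would need the state of the ancestor, which was not tested, so the copies are described here by where their RNA was found.

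For description, a copy was called placed dorsal where its own log2 ratio was at least 0.5 in all 3 experiments, and placed ventral where it was at most -0.5 in all 3. In most members the copies differed in degree, or 1 copy was placed and the other was not, while copies on opposite sides were found in 1 pair. In 26 members 1 copy was placed dorsal and its partner was on neither side; the placed copy was L in 15 and S in 11. In 6 members 1 copy was placed ventral and its partner was not, with L and S as the placed copy in 3 each. Both copies were placed dorsal in 8 members, to a different degree, and both ventral in 1. In the other 22 members neither copy was placed on a side in all 3 experiments. Here the S copy was the more dorsal in 17 and the L copy in 5. Over all eligible pairs, members included, a single copy was placed dorsal in 45 and ventral in 22. Both copies were placed dorsal in 32 and ventral in 9, and neither was placed in 3192. The S copy was the more dorsal in 48.3% of all eligible pairs and the L copy in 51.7%, whatever their placement. The rule used the same contrast, so nothing is read from these counts. Of the 128 member copies, 43 were placed dorsal and 9 ventral, against 1.67% and 0.621% of all 6602 copies; nothing is read from that gap, since the rule used the same contrast.

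**Figure D1:**
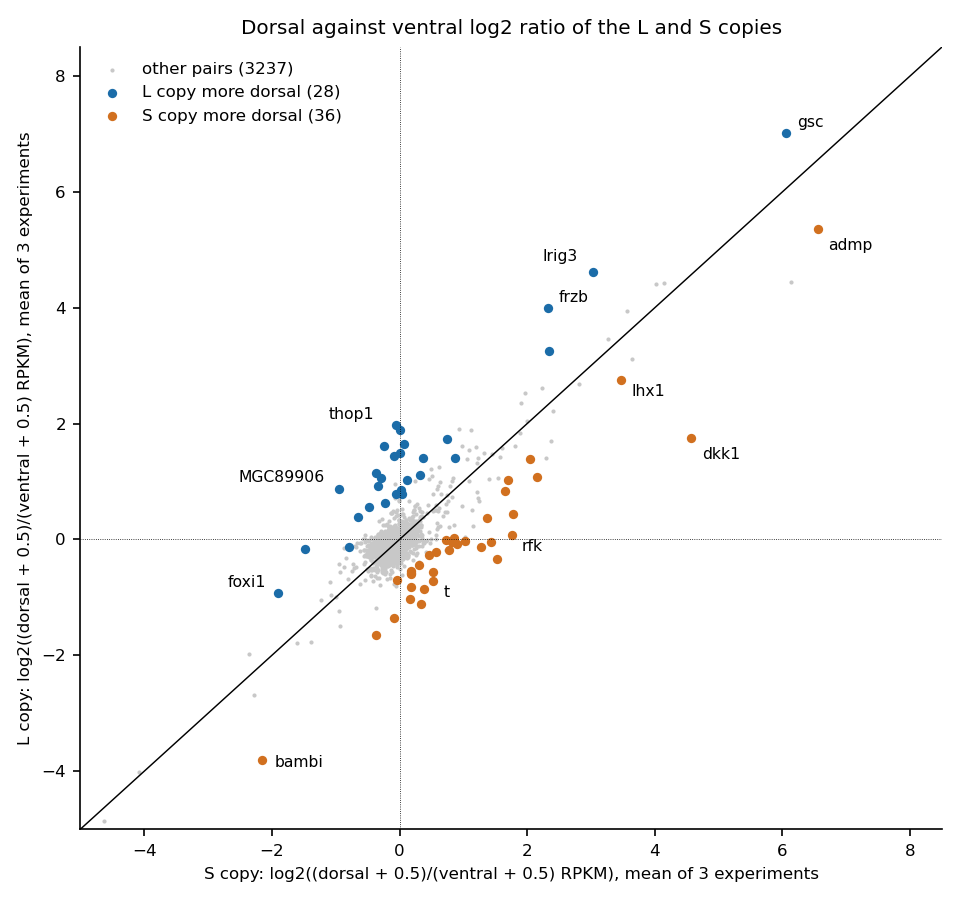
Each point is 1 of 3301 pairs, with the mean log2((dorsal + 0.5)/(ventral + 0.5) RPKM) over 3 experiments of the S copy on the horizontal axis and of the L copy on the vertical axis; the solid line marks equal values and the dotted lines mark 0. The 28 members with the L copy more dorsal lie above the line and the 36 with the S copy more dorsal below it, from bambi at the ventral end to gsc and admp at the dorsal end.

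The 1 pair with its copies on opposite sides was MGC89906, whose human match in the file is DLEU7. MGC89906.L stood at 58.9, 43.9 and 54.8 RPKM in the dorsal lips and 37.9, 20.9 and 28.1 RPKM in the ventral lips, listed in the order of the experiments here and below. MGC89906.S, the much lower copy, stood at 2.14, 1.25 and 0.954 RPKM in the dorsal lips and 5.71, 2.14 and 2.47 RPKM in the ventral lips. Within each experiment the L copy was higher dorsally and the S copy higher ventrally, and L minus S was 1.86, 1.65 and 1.98. Across experiments the L copy's dorsal lips all exceeded its ventral lips, whereas the S copy's dorsal lip of experiment 1 and ventral lip of experiment 2 were at about the same level. The S transcript is short, at 627 bases against 3343 for L, and its lowest lip value rests on 19 reads. In the whole embryo the S copy was at 8.49 RPKM, above every lip, and the L copy at 35.5 RPKM. No pair had copies on opposite sides with 1 RPKM added in place of 0.5, with a mean of at least 5 RPKM asked of each copy, or with 1 in place of 0.5 as the least log2 value, and without experiment 1 there were 2 such pairs.

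Secreted Wnt inhibitors of the organizer were split in either direction. The pair furthest apart of the 64 was dkk1, which encodes a secreted inhibitor that binds the Wnt co-receptor Lrp6. dkk1.S stood at 25.04, 15.4 and 15.9 RPKM in the dorsal lips and 0.248, 0.228 and 0.411 RPKM in the ventral lips. dkk1.L stood at 7.19, 7.08 and 4.56 RPKM in the dorsal lips and 0.727, 1.91 and 2.13 RPKM in the ventral lips. Both copies were higher in every dorsal than in every ventral lip. Ventrally the S copy was under 0.5 RPKM in each lip, while the L copy was under 1 RPKM only in experiment 1. L minus S was -2.45, -2.80 and -3.22, and the L copy's share of the summed RPKM was 25.3% ± 5.28 in the dorsal and 82.6% ± 7.48 in the ventral lips (SD, n = 3 each). The S copy's lowest ventral value rests on 9 reads. With a mean of at least 5 RPKM asked of each copy, dkk1 was no longer a member. frzb, which encodes a secreted Wnt-binding protein, had the opposite arrangement. frzb.L stood at 75.4, 42.8 and 43.8 RPKM in the dorsal lips and 6.69, 1.51 and 1.99 RPKM in the ventral lips, and frzb.S at 131, 75.3 and 72.5 RPKM in the dorsal lips and 44.4, 8.92 and 13.1 RPKM in the ventral lips. The S copy was the higher copy in all 6 lips and had the shallower ratio, so that L minus S was 1.86, 1.42 and 1.73. Another secreted Wnt-binding protein, sfrp2, was placed on neither side in either copy: sfrp2.L stood at 26.5, 20.8 and 25.8 RPKM in the dorsal lips and 4.81, 17.04 and 15.6 RPKM in the ventral lips, and sfrp2.S at 27.1, 7.86 and 10.1 RPKM in the dorsal lips and 12.6, 9.92 and 8.77 RPKM in the ventral lips. Only in experiment 1 were both sfrp2 copies over 2-fold higher dorsally, and L minus S was 1.27, 0.60 and 0.52, close to the threshold in experiments 2 and 3.

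The organizer transcription factors gsc and lhx1 had both copies higher dorsally in every experiment. gsc, the homeobox repressor that marks the organizer, had copies of similar level dorsally. gsc.L stood at 187, 200.2 and 221 RPKM in the dorsal lips and 2.41, 0.615 and 0.687 RPKM in the ventral lips. gsc.S stood at 139, 197 and 202 RPKM in the dorsal lips and 3.301, 1.78 and 1.67 RPKM in the ventral lips. The S copy was the higher one in every ventral lip, and L minus S was 0.81, 1.06 and 1.00. lhx1, a LIM homeobox gene of the organizer, was split the other way, with the S copy more dorsal. lhx1.L stood at 48.7, 35.9 and 41.1 RPKM in the dorsal lips and 18.9, 2.58 and 3.54 RPKM in the ventral lips, and lhx1.S at 47.98, 22.7 and 26.4 RPKM in the dorsal lips and 11.1, 0.788 and 0.976 RPKM in the ventral lips. Its difference was -0.72, -0.61 and -0.82, it was no longer a member with 1 RPKM added in place of 0.5, and both copies in ventral lip 1 were several times higher than in ventral lips 2 and 3. The ventral lip of experiment 1 also had the highest summed organizer markers of the ventral lips, at 24.1 RPKM against 7.21 and 7.80. That list holds gsc itself, and the part of these markers in the lhx1 and gsc values was not tested.

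admp encodes a BMP-family ligand that is made in the organizer itself. admp.S stood at 126, 63.8 and 76.2 RPKM in the dorsal lips and 1.03, 0.218 and 0.189 RPKM in the ventral lips, and admp.L at 51.7, 26.3 and 30.5 RPKM in the dorsal lips and 0.633, 0.199 and 0.296 RPKM in the ventral lips. Dorsally the S copy was higher in every library, and ventrally both copies were near 0, the lowest values resting on 14 reads for L and 12 for S. Its difference of -0.85, -1.23 and -1.52 therefore rests on low ventral values. lrig3, a transmembrane protein with leucine-rich repeats and immunoglobulin domains, exchanged its leading copy between the lips. lrig3.L stood at 60.9, 38.6 and 43.7 RPKM in the dorsal lips and 1.73, 1.45 and 1.14 RPKM in the ventral lips. lrig3.S stood at 29.5, 23.1 and 26.1 RPKM in the dorsal lips and 4.23, 2.17 and 2.26 RPKM in the ventral lips, the higher copy in each ventral lip, and L minus S was 2.12, 1.18 and 1.48. Both copies were also placed dorsal in lpar6, a receptor of lysophosphatidic acid, in which the lower S copy was the more dorsal, with differences of -1.39, -0.92 and -0.89; the naming rule did not select it.

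The homeobox gene not, of the organizer and notochord, had copies with opposite tendencies at a similar level. not.L stood at 47.7, 45.02 and 41.3 RPKM in the dorsal lips and 61.6, 56.4 and 65.3 RPKM in the ventral lips with every ventral value above every dorsal one. not.S stood at 78.2, 86.7 and 78.5 RPKM in the dorsal lips and 61.6, 60.7 and 75.6 RPKM in the ventral lips, with every dorsal value above every ventral one. L minus S was -0.71, -0.83 and -0.71, and neither copy reached 0.5 in all experiments.

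**Figure D2:**
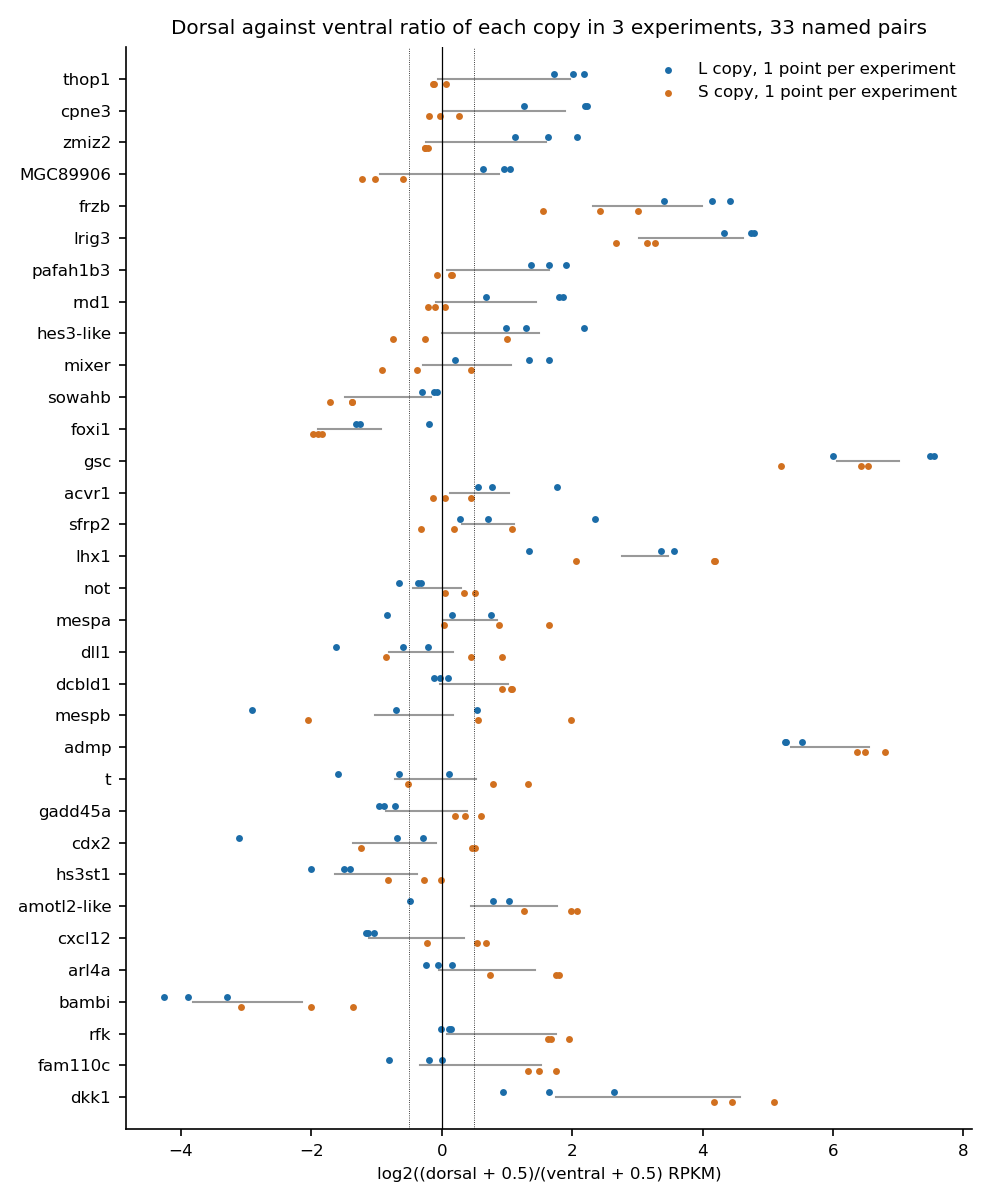
For 33 named members, ordered by the mean difference, each point is the log2((dorsal + 0.5)/(ventral + 0.5) RPKM) of the L or the S copy in 1 of 3 experiments, the grey bar joins the means of the copies, and the dotted lines mark -0.5 and 0.5. MGC89906 is the only pair with all points of 1 copy right of 0.5 and all of the other left of -0.5, and for t, mespb, mespa, cdx2 and dll1 the leftmost point of each copy is that of experiment 1.

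On the ventral side, bambi was the only member with both copies ventral. It encodes a pseudoreceptor that damps BMP and activin signalling and is itself switched on by BMP. bambi.L stood at 6.798, 7.88 and 5.61 RPKM in the dorsal lips and 139, 81.3 and 90.4 RPKM in the ventral lips. bambi.S stood at 10.5, 11.4 and 7.399 RPKM in the dorsal lips and 92.8, 30.03 and 31.3 RPKM in the ventral lips. The S copy was slightly higher in every dorsal lip and the L copy was higher in every ventral lip, most clearly in experiments 2 and 3. L minus S was -1.18, -1.93 and -1.88, with a mean of -1.66 ± 0.42 (SD, n = 3), so the L copy had the steeper ventral ratio.

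In 6 members a single copy was placed ventral. gadd45a, a stress and growth arrest gene, had gadd45a.L at 39.9, 25.4 and 27.8 RPKM in the dorsal lips and 78.4, 42.2 and 51.96 RPKM in the ventral lips. gadd45a.S stood at 41.6, 34.4 and 33.3 RPKM in the dorsal lips and 36.2, 22.5 and 25.9 RPKM in the ventral lips, lower ventrally in each experiment. Its L minus S was -1.17, -1.33 and -1.25, with a mean of -1.25 ± 0.08 (SD, n = 3). hs3st1, which encodes a heparan sulfate sulfotransferase, had its high copy ventral: hs3st1.L stood at 7.22, 13.5 and 9.75 RPKM in the dorsal lips and 21.4, 36.7 and 40.8 RPKM in the ventral lips, and hs3st1.S at 0.511, 3.12 and 1.57 RPKM in the dorsal lips and 0.524, 3.89 and 3.16 RPKM in the ventral lips. Its L minus S was -1.48, -1.14 and -1.19, while on either side both copies were lower in experiment 1 than in experiments 2 and 3. cxcl12, the chemokine ligand of the receptor Cxcr4, also had the L copy ventral. cxcl12.L stood at 2.798, 2.15 and 2.07 RPKM in the dorsal lips and 6.72, 4.96 and 5.28 RPKM in the ventral lips, and cxcl12.S at 1.43, 1.65 and 1.02 RPKM in the dorsal lips and 1.75, 0.842 and 0.541 RPKM in the ventral lips. The S transcript of cxcl12 is 341 bases long and had as few as 5 reads in a lip, so the S side of the difference of -0.91, -1.73 and -1.71 is poorly measured.

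With the S copy as the ventral one, sowahb, an ankyrin repeat gene, had sowahb.S at 1.29, 2.17 and 1.71 RPKM in the dorsal lips and 4.15, 6.42 and 6.75 RPKM in the ventral lips, against 0.271, 1.51 and 1.19 RPKM in the dorsal lips and 0.341, 1.96 and 1.28 RPKM in the ventral lips for sowahb.L. Its L minus S was 1.25, 1.08 and 1.64. foxi1, a forkhead factor of the ectoderm, leaned ventral in both copies. foxi1.L stood at 12.9, 5.57 and 5.34 RPKM in the dorsal lips and 14.9, 14.7 and 13.5 RPKM in the ventral lips, and foxi1.S at 1.05, 0.577 and 0.649 RPKM in the dorsal lips and 5.299, 3.74 and 3.62 RPKM in the ventral lips. The low S copy had the steeper ventral ratio in each experiment, and L minus S was 1.70, 0.65 and 0.58; with 1 RPKM added in place of 0.5 the pair was no longer a member. Summed epidermis markers, a list that holds foxi1, were also higher in each ventral than in each dorsal lip. Its 3 measured pairs were mixed, with dlx5 and foxi1 higher ventrally and krt18 higher dorsally in both copies. The dorsal and ventral means were 255 and 213 RPKM for krt18.L and 74.2 and 68.1 RPKM for krt18.S. The part of these markers in the foxi1 values was not tested. The sixth pair, tnip2, was not selected by the naming rule; its S copy was placed ventral, with differences of 0.58, 0.74 and 0.70.

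Of the 26 members with a single dorsal copy, only acvr1 and rnd1 were in a functional list, and the others had no listed part in dorsoventral patterning. In the placed copy the mean log2 ratio ranged from 0.78 to 2.04, and in the partner from -0.36 to 1.39. thop1, which encodes a cytosolic peptidase, had its dorsal signal in the minor copy. thop1.L stood at 5.47, 2.48 and 3.604 RPKM in the dorsal lips and 0.986, 0.405 and 0.406 RPKM in the ventral lips, while thop1.S stood at 42.8, 40.4 and 36.3 RPKM in the dorsal lips and 47.01, 38.6 and 39.3 RPKM in the ventral lips. The S copy was over 5-fold higher in each library and flat across the lips, and L minus S was 2.14, 1.65 and 2.29. rfk, which encodes riboflavin kinase of flavin cofactor synthesis, was dorsal in its S copy alone. rfk.L stood at 12.5, 7.900 and 7.97 RPKM in the dorsal lips and 12.6, 7.302 and 7.19 RPKM in the ventral lips, and rfk.S at 26.8, 8.26 and 9.65 RPKM in the dorsal lips and 8.02, 2.33 and 2.11 RPKM in the ventral lips. The L copy differed more between experiment 1 and the others than between the lips, and L minus S was -1.69, -1.52 and -1.82.

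Other pairs had the L copy dorsal. zmiz2, a transcriptional co-activator of the PIAS family, had zmiz2.L at 36.7, 29.2 and 38.99 RPKM in the dorsal lips and 16.6, 9.13 and 8.88 RPKM in the ventral lips, and zmiz2.S at 15.6, 11.8 and 11.4 RPKM in the dorsal lips and 18.2, 14.2 and 13.7 RPKM in the ventral lips. cpne3, a calcium-dependent membrane-binding protein, had cpne3.L at 26.2, 19.1 and 20.8 RPKM in the dorsal lips and 10.6, 3.75 and 4.05 RPKM in the ventral lips, and cpne3.S at 20.3, 16.5 and 12.6 RPKM in the dorsal lips and 20.6, 13.7 and 14.5 RPKM in the ventral lips. In both pairs every dorsal value of L exceeded every ventral value of L, and the S values of the lips overlapped. Their L minus S was 1.34, 1.88 and 2.33 for zmiz2 and 1.28, 1.95 and 2.42 for cpne3, in each case smallest in experiment 1. pafah1b3, a catalytic subunit of platelet-activating factor acetylhydrolase, had pafah1b3.L at 10.3, 16.9 and 17.9 RPKM in the dorsal lips and 3.68, 5.06 and 4.402 RPKM in the ventral lips, and pafah1b3.S at 10.5, 16.5 and 14.6 RPKM in the dorsal lips and 9.48, 14.8 and 15.3 RPKM in the ventral lips. Again the S copy overlapped between the lips while the L copy did not, and L minus S was 1.23, 1.49 and 1.99. rnd1, a small GTPase that lowers cell adhesion in the frog gastrula, had rnd1.L at 121, 87.2 and 90.7 RPKM in the dorsal lips and 75.7, 23.6 and 25.8 RPKM in the ventral lips, and rnd1.S at 88.7, 43.3 and 40.9 RPKM in the dorsal lips and 95.6, 42.1 and 47.7 RPKM in the ventral lips. Here the difference was 0.78, 1.82 and 2.01, and on either side both copies were lower in experiments 2 and 3 than in experiment 1. acvr1, a type I receptor for BMP, had its low copy dorsal: acvr1.L stood at 14.7, 11.2 and 11.4 RPKM in the dorsal lips and 3.96, 7.43 and 6.502 RPKM in the ventral lips, and acvr1.S at 45.5, 36.6 and 37.6 RPKM in the dorsal lips and 33.1, 40.3 and 36.3 RPKM in the ventral lips. Its L minus S was 1.32, 0.69 and 0.72.

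The S copy was the dorsal one in several further pairs. arl4a, a small GTPase of the Arf-like family, had arl4a.S at 29.9, 22.8 and 20.8 RPKM in the dorsal lips and 17.7, 6.201 and 5.81 RPKM in the ventral lips, against 23.9, 18.7 and 18.1 RPKM in the dorsal lips and 28.5, 16.7 and 18.8 RPKM in the ventral lips for arl4a.L. dcbld1, a transmembrane protein, had dcbld1.S at 10.9, 7.76 and 9.49 RPKM in the dorsal lips and 4.897, 3.45 and 4.78 RPKM in the ventral lips, against 29.1, 31.5 and 26.7 RPKM in the dorsal lips and 29.8, 29.6 and 29.1 RPKM in the ventral lips for dcbld1.L. In both, the L copy overlapped between the lips and the S copy did not. Their differences were -0.99, -1.64 and -1.81 for arl4a and -1.11, -0.97 and -1.04 for dcbld1. fam110c, of a family found at centrosomes in human cells, had fam110c.S at 6.697, 7.32 and 7.58 RPKM in the dorsal lips and 1.63, 2.61 and 2.38 RPKM in the ventral lips, and fam110c.L at 6.94, 5.58 and 5.62 RPKM in the dorsal lips and 12.5, 6.47 and 5.601 RPKM in the ventral lips. L minus S was -2.56, -1.53 and -1.48. amotl2-like, an angiomotin of cell junctions, had amotl2-like.S at 9.04, 6.94 and 8.61 RPKM in the dorsal lips and 3.48, 1.39 and 1.66 RPKM in the ventral lips, and amotl2-like.L at 5.85, 4.71 and 6.19 RPKM in the dorsal lips and 8.402, 2.51 and 2.77 RPKM in the ventral lips, and its difference was -1.75, -1.19 and -1.04. Its L copy was higher dorsally in experiments 2 and 3 and higher ventrally in experiment 1. hes3-like, a member of the Hes repressor family, had the L copy placed dorsal from very few reads, as few as 1 in a lip. hes3-like.L stood at 5.11, 0.808 and 0.716 RPKM in the dorsal lips and 0.734, 0.0329 and 0.114 RPKM in the ventral lips, and hes3-like.S at 4.65, 1.81 and 2.82 RPKM in the dorsal lips and 2.08, 3.37 and 3.45 RPKM in the ventral lips, so that both copies overlapped between the lips over experiments. Its mean L minus S was 1.49, and 2.45 with 0.1 RPKM added in place of 0.5.

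In the members of the pan-mesodermal list the S copy was the more dorsal each time, as it was in 36 of all 64 members. The pan-mesodermal list held 9 measured pairs, of which 4 were members: t, mespa, mespb and cdx2. Neither copy of any of them was placed on a side, and in each of them the lips of experiment 1 leaned further to the ventral side than those of experiments 2 and 3. t, the T-box gene brachyury of the whole mesodermal ring, had t.L at 18.3, 10.1 and 11.7 RPKM in the dorsal lips and 56.4, 9.29 and 18.6 RPKM in the ventral lips. t.S stood at 77.6, 53.98 and 65.1 RPKM in the dorsal lips and 112, 21.3 and 37.5 RPKM in the ventral lips. Both copies were highest in ventral lip 1, while the L minus S difference was -1.07, -1.21 and -1.44, with a mean of -1.24 ± 0.19 (SD, n = 3). mespb, a basic helix-loop-helix factor of mesoderm, had mespb.L at 3.25, 2.58 and 2.02 RPKM in the dorsal lips and 27.8, 1.61 and 3.61 RPKM in the ventral lips, and mespb.S at 12.3, 11.2 and 9.503 RPKM in the dorsal lips and 52.7, 2.45 and 6.28 RPKM in the ventral lips. The log2 ratio of its S copy went from -2.05 in experiment 1 to 1.99 in experiment 2, yet L minus S was -0.86, -1.44 and -1.27. The related mespa had mespa.L at 1.96, 2.96 and 2.51 RPKM in the dorsal lips and 3.93, 1.56 and 2.21 RPKM in the ventral lips, mespa.S at 6.17, 7.42 and 7.08 RPKM in the dorsal lips and 6.01, 2.04 and 3.64 RPKM in the ventral lips, and a difference of -0.88, -0.89 and -0.72. cdx2, a caudal-type homeobox gene of posterior fate, had cdx2.L at 0.495, 0.238 and 0.2505 RPKM in the dorsal lips and 8.07, 0.397 and 0.702 RPKM in the ventral lips, and cdx2.S at 1.28, 0.567 and 0.533 RPKM in the dorsal lips and 3.71, 0.2505 and 0.245 RPKM in the ventral lips. In the lips other than ventral lip 1 all cdx2 values were below 1 RPKM, apart from the S copy in dorsal lip 1. The cdx2.S values of ventral lips 2 and 3 rest on 13 and 11 reads. The cdx2 difference was -1.87, -0.79 and -1.15. The mean of these, -1.27, became -1.96 with 0.1 RPKM added in place of 0.5, and with 1 RPKM added cdx2 was no longer a member. dll1, a ligand of the Notch receptor, went the same way with dll1.L at 6.75, 7.56 and 6.94 RPKM in the dorsal lips and 21.9, 8.83 and 10.8 RPKM in the ventral lips, dll1.S at 24.02, 30.96 and 32.8 RPKM in the dorsal lips and 43.9, 16.1 and 23.9 RPKM in the ventral lips, and a difference of -0.77, -1.13 and -1.05. Of the other 5 measured pan-mesodermal pairs, the mean L minus S was lowest in eomes, at -0.52, was -0.06 in fgf8 and was about 0 in cdx4.

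Of the endodermal regulators, mixer, a homeobox target of Nodal signalling, was a member with the L copy more dorsal. mixer.L stood at 187, 146 and 144 RPKM in the dorsal lips and 161, 46.2 and 56.5 RPKM in the ventral lips, and mixer.S at 60.5, 113 and 75.2 RPKM in the dorsal lips and 114, 82.5 and 98.1 RPKM in the ventral lips. The L copy was higher dorsally in each experiment, by little in experiment 1, and the S copy changed sign between experiments, with L minus S at 1.12, 1.20 and 1.73. Summed endoderm markers overlapped between the lips, but the copies of mixer itself made up most of that sum in every lip. In dorsal lip 1, for example, the sum was 382 RPKM, with mixer.L at 187 and mixer.S at 60.5. The sum therefore says little about endoderm apart from mixer, and the part of endoderm in the mixer values was not tested.

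**Figure D3:**
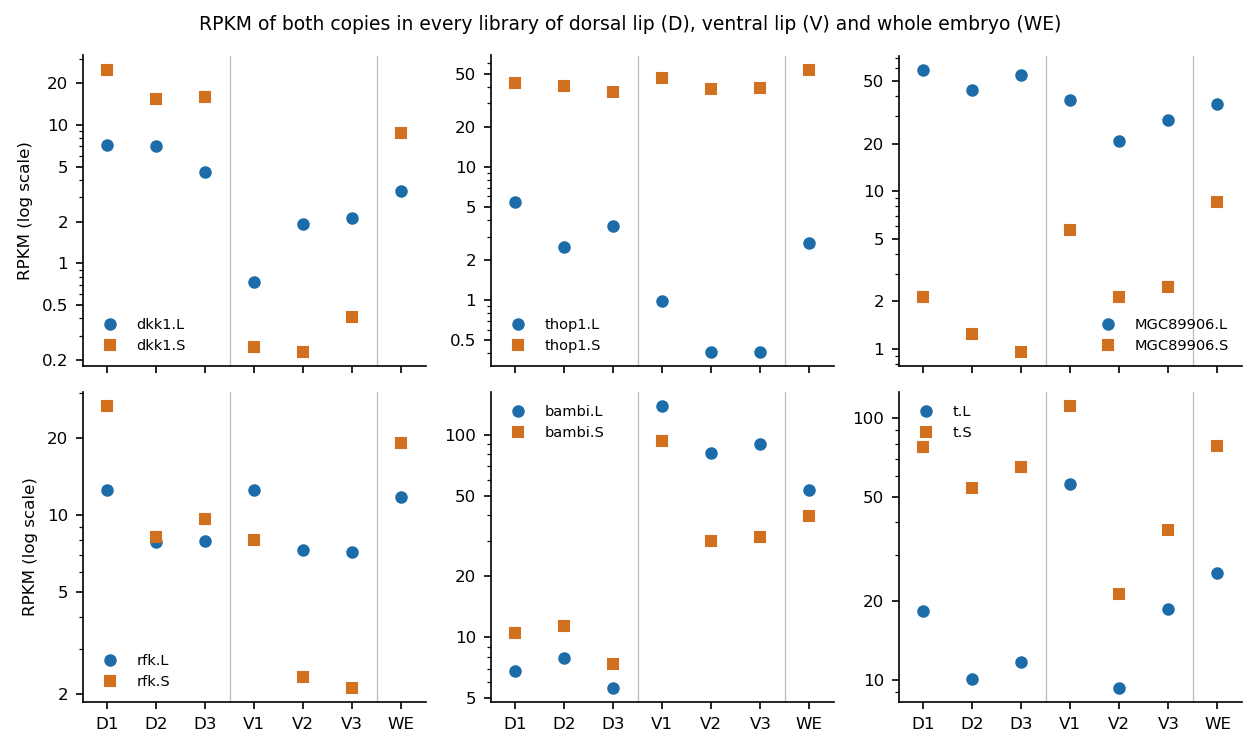
RPKM on a log axis of both copies of 6 members in each of 7 libraries, the dorsal lips D1 to D3, the ventral lips V1 to V3 and the whole embryo at the far right. The S copy of dkk1 falls below the L copy in the ventral lips, the 2 copies of bambi exchange order, and both copies of t are highest in V1.

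The copies' share of a pair's RNA showed how far placement changed which copy led. The median absolute change in the L copy's share between dorsal and ventral lips was 14.5 percentage points in the 64 members, against 1.23 in all 3301 pairs. It ranged from 0.635 points to the 57.2 points of dkk1. In 43 members the L shares of the dorsal and ventral lips did not overlap, against 7.09% of all pairs, a gap that the rule itself brings about. In 17 members the leading copy differed between the lips in all 6 libraries, against 21 pairs (0.636%) of all. The change in share between the lips is the rule's own contrast, so nothing is read from any of these gaps. S led dorsally and L ventrally in 11 of the 17, among them dkk1, bambi, rfk, arl4a, gadd45a, amotl2-like and cdx2. L led dorsally and S ventrally in 6, among them zmiz2, cpne3, lrig3, rnd1 and gsc. zmiz2.L made up 72.97% ± 3.904 in the dorsal and 42.1% ± 4.901 in the ventral lips (SD, n = 3 each) of its pair. The L share of bambi was 41.1% ± 1.96 in the dorsal and 69.1% ± 7.91 in the ventral lips (SD, n = 3 each), and that of cdx2 was 29.8% ± 2.06 in the dorsal and 67.98% ± 6.41 in the ventral lips (SD, n = 3 each).

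The whole embryo was not used by the rule, though it holds both lips. Its L share lay within the range of the 6 lips in 60 of the 64 members, against 66.9% of all pairs, where the range is narrower because those pairs were not chosen for a difference between the lips. For dkk1 the whole embryo share was 27.5%, within the range of the dorsal lips, and for cdx2 it was 65.03%, within that of the ventral lips. bambi, at 57.3%, lay between its dorsal and ventral lips. The 4 members outside the range were MGC89906, arl4a, admp and gatm, with shares of 80.7%, 40.1%, 27.2% and 92.98%.

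**Figure D4:**
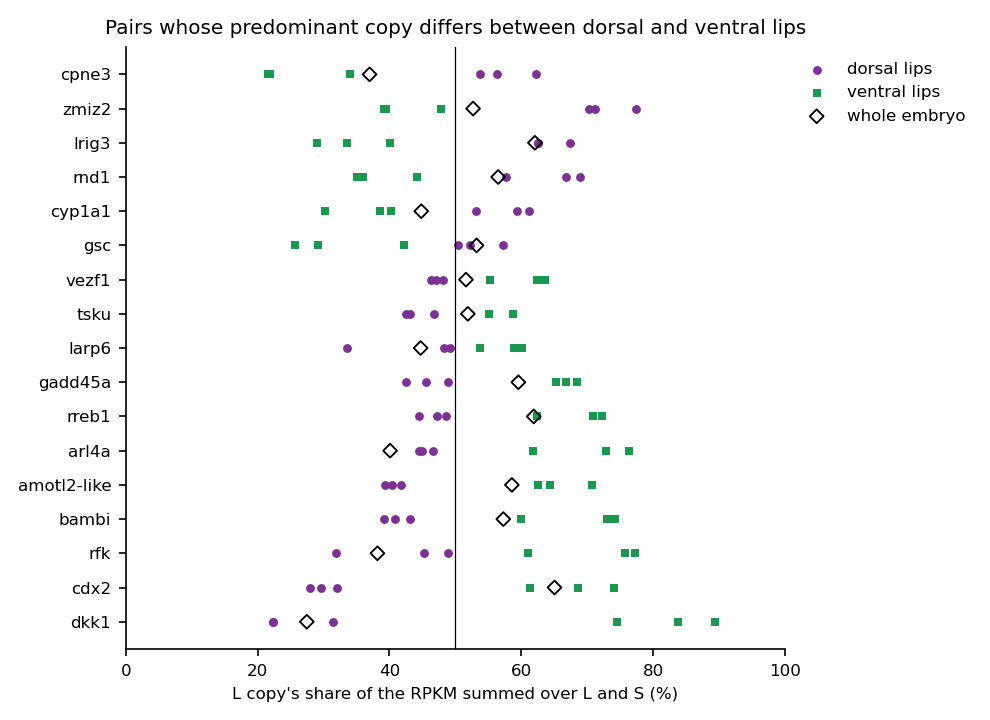
For the 17 members whose leading copy differed between the lips, the L copy's share of the RPKM summed over both copies is shown in percent for 3 dorsal lips, 3 ventral lips and the whole embryo; the vertical line marks 50%. Dorsal and ventral points lie on opposite sides of the line in each pair, most widely in dkk1.

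When the copies were summed, as a count per gene without regard to copy would do, 18 members were placed dorsal, 6 ventral and 40 on neither side. For all pairs, 1.51% of the sums were dorsal and 0.576% ventral. In 15 members the copies had opposite signs in all 3 experiments, against 3.36% of all pairs. In 30 members (46.9%) at least 1 copy changed sign between experiments, as the mesodermal pairs did, against 67.2% of all pairs. These counts come from the values that chose the members, so nothing is read from the gaps to all pairs.

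The rule used the mean level of the copies only as a minimum of 1 RPKM in each copy, asked of all 3301 pairs alike. The ratio of the copies' levels was tested. For each of the 3301 pairs, log2(L + 0.5) minus log2(S + 0.5) over the 6 lips was fitted with limma, with the side as a term. A pair was called at a Benjamini-Hochberg adjusted p under 0.05 and at least 2-fold. The fit took the 6 lips as independent. Lips of the same experiment deviated together, so its SE and p can be too small and its calls too many. Of the 64 members, 30 were called (46.9%), against 44.4% of all pairs. L was the higher copy in 16 (25.0%, against 24.8%) and S in 14 (21.9%, against 19.7%), so unequal levels were about as common among the members as in all pairs. Among the 34 members with a mean of at least 5 RPKM in each copy, L was called the higher copy in 3 and S in 8. Of all 1919 pairs at that level, L was called higher in 417 and S in 331. The members' counts are small, and nothing is read from them. In the 30 called members, the higher copy was the more dorsal in 10 and the more ventral in 20. The side is the rule's own contrast, and no matching share over all pairs was counted, so nothing is read from this split. Among the named pairs, the greatest excess of S was in thop1, with a log2(L/S) of -4.28 ± 0.14 (SE, n = 6 libraries) and an adjusted p from limma of 1.24e-06. The greatest excess of L among them was in MGC89906, with 3.89 ± 0.13 (SE, n = 6 libraries) and an adjusted p from limma of 1.49e-06. hs3st1 at 3.03 ± 0.21 (SE, n = 6 libraries), foxi1 at 2.16 ± 0.12 (SE, n = 6 libraries) and dcbld1 at 2.11 ± 0.11 (SE, n = 6 libraries) also had L higher in 6 of 6 libraries. acvr1 at -2.10 ± 0.09 (SE, n = 6 libraries), t at -1.66 ± 0.07 (SE, n = 6 libraries) and frzb at -1.61 ± 0.07 (SE, n = 6 libraries) had S higher in 6 of 6, as did dll1 and mespb.

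Several of the widest splits had a mean log2(L/S) that could not be told from 0. dkk1 had a log2(L/S) of -0.09 ± 0.17 (SE, n = 6 libraries) with an adjusted p from limma of 0.638, and L was the higher copy in 3 of 6 libraries. lrig3 had 0.03 ± 0.10 (SE, n = 6 libraries) with an adjusted p from limma of 0.767, and cdx2 had 0.02 ± 0.12 (SE, n = 6 libraries) with an adjusted p from limma of 0.863. A p that misses the threshold does not show that the levels were equal. In these 3 pairs the leading copy differed between the lips, so opposite log ratios of the dorsal and ventral lips offset each other. The mean RPKM over the 6 lips was 3.93 for L and 9.54 for S in dkk1. It was 24.6 and 14.6 in lrig3, and 1.69 and 1.10 in cdx2. gsc, at -0.29 ± 0.10 (SE, n = 6 libraries) and an adjusted p from limma of 0.042, passed on p but was under 2-fold.

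**Figure D5:**
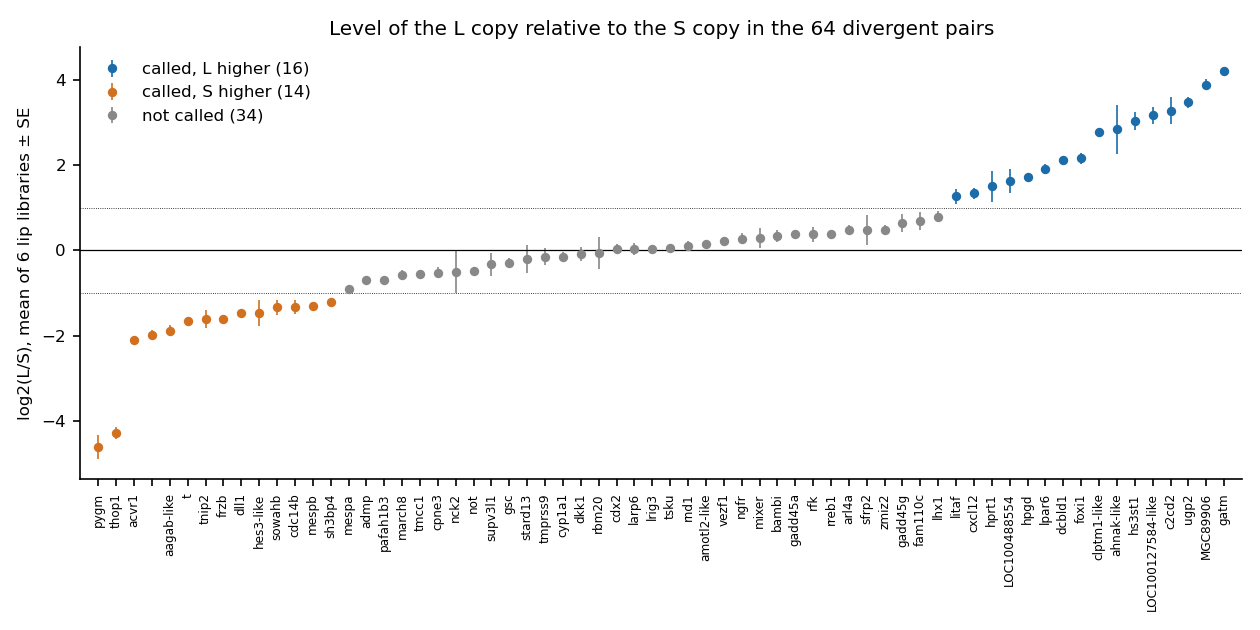
The mean log2(L/S) over 6 lip libraries with its SE from limma for each of the 64 members, in order; blue and orange mark pairs called with L or S higher and grey those not called, and the dotted lines mark a 2-fold ratio. The called pairs lie at both ends, 16 with L and 14 with S higher, and the 34 others lie between.

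Functional lists differed in how many of their pairs were members. The 12 lists held 126 measured pairs, of which 20 (15.9%) were members, against 1.94% of all pairs; the lists were written around dorsoventral patterning and chosen with results of these data known, so no test was made of this. Of 17 measured organizer pairs, 8 were members (admp, dkk1, frzb, gsc, lhx1, lrig3, not and sfrp2), evenly split between L and S as the more dorsal copy. Both copies were placed dorsal in 12 of the 17. Among those that were no members, the mean difference was greatest in cer1, at 1.69 in absolute value, a secreted antagonist of Nodal, Wnt and BMP that missed the rule with a smallest difference of 0.30. The Wnt list had 3 members of 15 pairs, and the Nodal and activin list 2 of 16. The ventral center and BMP list had 1 of 8, bambi, although 5 of its pairs had both copies placed ventral. For szl, a secreted inhibitor in the BMP pathway, the copies' mean log2 ratios were -4.86 for L and -4.63 for S, and for wnt8a -4.02 and -4.08. No pair of the FGF list (13 measured) or the retinoic acid list (5 measured) was a member. The endoderm list had 2 of 8, the neural ectoderm list 1 of 9, the epidermis list 1 of 10, the morphogenesis list 2 of 22 and the Notch and Hedgehog list 1 of 7.

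The authors' own selections list the copies separately. Of the 64 members, 14 had both copies in the authors' deposited table of dorsal transcripts, 21 had 1 copy only and 29 had neither, where 1.48% of all pairs had both and 1.3% had 1. The single copy was L in 10 and S in 11. In the authors' deposited ventral table, 2 members had both copies and 3 had 1 copy, against 0.303% and 0.424% of all pairs. These tables rest on the lips of experiments 2 and 3, so they share libraries with the rule and nothing is read from these gaps. In the authors' deposited tables the dorsal over ventral ratio was 2.88 for dkk1.L and 49.0 for dkk1.S, 24.7 for frzb.L and 6.72 for frzb.S, and 31.7 for lrig3.L and 11.1 for lrig3.S. The ventral over dorsal ratio in the authors' deposited table was 12.7 for bambi.L and 3.27 for bambi.S. Neither copy of any member was in the authors' deposited injury table of 744 entries, which lists transcripts raised in both lips over the whole embryo; of all pairs, only 0.0606% had both copies and 0.212% had 1 copy there.

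The authors' deposited coefficients of correlation to chordin and to bambi were taken over 26 samples that include these lips and kinds not analysed here. To chordin, the coefficient in the authors' deposited table was 0.65 for cpne3.L and -0.07 for cpne3.S, 0.27 for rfk.L and 0.64 for rfk.S, and 0.45 for pafah1b3.L and -0.24 for pafah1b3.S. It was 0.55 for dkk1.L and 0.79 for dkk1.S in the authors' deposited table, and 0.56 for MGC89906.L and 0.02 for MGC89906.S. In each of these pairs the more dorsal copy had the higher coefficient. In the authors' deposited table the reverse held for amotl2-like, at 0.00479 for L and -0.248 for S, and for lhx1, at 0.749 and 0.716. The copies of gsc were nearly equal there, at 0.846 for L and 0.849 for S. These pairs are examples, and the directions were not counted over all members. To bambi, the coefficient in the authors' deposited table was 0.36 for hs3st1.L and -0.29 for hs3st1.S, but 0.69 for cxcl12.L and 0.70 for cxcl12.S. The copies of cpne3, pafah1b3, amotl2-like and hs3st1 had coefficients of opposite sign and those of gsc and cxcl12 nearly equal ones, in samples partly shared with the rule.

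The 30 members outside the 34 named for their differences or lists had mean absolute differences from 0.552 to 1.502. The L copy was the more dorsal in 12 of them and the S copy in 18; 14 had a single dorsal copy and 14 had neither copy placed. Just inside the threshold were gatm, an enzyme of creatine synthesis, with differences of 0.51, 0.53 and 0.62, and vezf1, a zinc finger gene, with -0.50, -0.88 and -0.86. Just outside were fgfr4, an FGF receptor, with -0.49, -0.75 and -0.79, and tiparp with 0.48, 0.68 and 0.60. gatm shows what the added 0.5 RPKM does to a low copy: gatm.S stood at 7.903, 1.58 and 2.59 RPKM in the dorsal lips and 6.12, 0.527 and 0.826 RPKM in the ventral lips, and gatm.L at 232, 41.4 and 60.2 RPKM in the dorsal lips and 128, 13.8 and 16.4 RPKM in the ventral lips. Its L share was 96.3% ± 0.416 in the dorsal and 95.7% ± 0.586 in the ventral lips (SD, n = 3 each), with overlap, and with 0.1 RPKM added in place of 0.5 the pair was no longer a member, the only one of the 64 to be lost.

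Transcript length and level were similar in the members and in all pairs. The longer transcript was at least 1.5 times the shorter in 22 members (34.4%), against 35.8% of all pairs, and the median ratio was 1.29 in both. The lower copy had a mean under 5 RPKM in 30 members (46.9%), against 41.9% of all pairs. Both copies had at least 100 reads in every lip in 41 members, and 3 member copies, dkk1.S, hes3-like.L and cxcl12.S, had fewer than 10 in a lip. How reads that match both copies were assigned is not given in the sources used here, so differences between near-identical copies are uncertain to that degree.

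The copies' shares also differed between experiments, a contrast that the rule did not use. The L share of both lips of experiment 1 lay outside the range of the 4 lips of experiments 2 and 3 in 13 of the 64 members, against 2426 of the 3301 pairs (73.5%). The members' ranges are wider, since they were chosen for a difference between the lips. With a gap of at least 20 percentage points there were 2 members and 138 pairs in all (4.18%), and in each of the 138 the whole embryo of experiment 1 lay on the side of its own lips. For ahnak-like, a match of the large scaffold protein AHNAK, the L share was 59.9% to 70.3% in the lips of experiment 1, 91.9% to 98.6% in those of experiments 2 and 3, and 66.4% in the whole embryo. For rbm20, a splicing factor, it was 67.1% to 80.7%, 17.2% to 46.6% and 65.1%. In nck2, which encodes an adaptor protein, L was the leading copy in both lips of experiment 1, at 86.3% and 59.5%, and S in each lip of experiments 2 and 3, where the L share ranged from 9.11% to 44.5%. These 3 pairs were picked after their values were seen. Clutch, lane and experiment cannot be told apart here.

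The rule is looser with fewer experiments, and leaving out experiment 1 moved the count most. Without experiment 1, the rule kept 119 pairs, 56 of the 64 among them, and the L copy was the more dorsal in 60 of the 119. Without experiment 2 it kept 78 and without experiment 3 it kept 69, including 63 and 64 of the 64. The 8 members lost without experiment 1 were ahnak-like, c2cd2, cdx2, hes3-like, hpgd, nck2, rbm20 and tnip2, each with a copy under 1 RPKM over the 4 lips left.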

How the data were processed

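RNA of the lips and whole embryos was sequenced from polyadenylated RNA on a HiSeq, from TruSeq libraries read from 1 end, per the labels' protocols. The authors deposited RPKM per transcript on JGI gene models, per the file headers. TopHat2 2.09 and DESeq are named in the submitters' processing notes with no role. The ratio of lips in the tables of dorsal, ventral and injury transcripts, and the correlation score to chordin and bambi, were deposited by the authors. How reads were counted, with what strand setting, and where reads matching both copies went, is not given in the sources used here.

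From the RPKM steps, reads and lengths were recovered, whole within 0.001 reads for 35325 of 35326 transcripts above 0. The rule, placements and shares were computed from the deposited RPKM in Python 3.11.15 with pandas 2.3.3. For the level test, a two-sided moderated fit with a mean trend was made in limma 3.58.1 (R 4.3.3) and run on simulated data. The simulated libraries were drawn independently, so that run cannot show what happens when lips of the same experiment deviate together. The members and lists were chosen with earlier results of these data known. Named pairs were those with copies on opposite sides, the 10 in each direction with the greatest smallest difference, and members in the 12 functional lists. The 2 pairs nearest the threshold on either side are given only to show it. Dorsal and ventral libraries were paired by their number. Same-numbered libraries deviated together from their group means (0.926, 0.881 and 0.819 over 16514 transcripts). Between experiments 2 and 3, libraries of unlike number correlated too. The value was 0.839 for dorsal lip 2 with ventral lip 3, above the 0.819 of dorsal lip 3 with ventral lip 3. It was 0.748 for dorsal lip 3 with ventral lip 2. The correlations set experiment 1 apart from the others but cannot tell how libraries 2 and 3 pair, which rests on the numbers alone. Both copies of 53 members, 1 copy of 3 and no copy of 8 were named in RefSeq's gene table, which is of another assembly. The pseudocount, the minimum level, the least difference and each library were varied. On the log2(RPKM + 0.5) scale, the dorsal against ventral ratio of a copy near 0 is understated. L minus S can thereby be made smaller or, as in gatm, larger. Of the named pairs, 1 is not reported here.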

Additional observations from a re-analysis of the deposited data

How the results depend on the processing

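The count of divergent pairs moved by over 1.5 times with the level filter and the size of the difference. With a mean of at least 5 RPKM in each copy it was 34 of 1919 eligible pairs (1.77%), with L more dorsal in 13. With no minimum level it was 141 of 6556 (2.15%), with L more dorsal in 71. The level filter thus changed the number of eligible pairs, while the share of divergent pairs stayed close to 1.94%. With a least difference of 1 in every experiment the count was 19 of 3301 (0.576%), with L more dorsal in 11. Leaving out 1 experiment gave 69 to 119 pairs, with L more dorsal in 32 to 60. With 0.1 or 1 RPKM added the count was 69 or 57, and 63 and 57 of the 64 were kept. In the level test, 748 of 1919 pairs and 11 of 34 members (3 with L and 8 with S higher) were called at a mean of at least 5 RPKM. With no minimum, 2511 of 6556 pairs were called. These counts moved because other numbers of pairs were tested. Leaving out 1 library gave 1454 to 1473 pairs and 28 to 30 members. With the replicate number as a block, 1473 pairs and 30 members were called, and no call of a member changed. Such a block takes the spread between experiments out of the error, and pairs past the adjusted p alone rose from 2656 to 3076. It therefore cannot show whether the calls hold when lips of the same experiment deviate together. The sign of log2(L/S) reversed, without a call on either side, in 3 of the named pairs: with 0.1 RPKM added it was -0.0376 for cdx2, 0.22 for dkk1 and -0.0334 for lrig3, and leaving out single libraries it ranged from -0.0138 to 0.124 for cdx2, from -0.195 to 0.0641 for dkk1 and from -0.0431 to 0.115 for lrig3; the cause was not tested. Copies of few reads limit the ventral values of dkk1.S, admp, hes3-like.L, cxcl12.S and cdx2.S.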
